A study of Danio rerio with 6 samples.

Results

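The genes described here encode the enzymes that break down amino acids and the enzymes of the urea cycle. They were chosen by symbol from a list of 49 names, before any filter on level, and matched to 39 of the 25640 gene IDs in a table of read counts from adult zebrafish (Danio rerio) liver. A gene ID was taken where its symbol equalled a name on the list, or where its all-capital symbol equalled the name once its paralog letter (a or b) was dropped. Of the 49 names 40 found a gene ID. fah, afmid, kynu, dbt, mccc1, cdo1, sds, otc and ass1 were not analysed here. Capital symbols were carried by 36 of the 39 IDs, so that a paralog could not always be told, and TDO2, HPD, HIBADH, GCDH and AGXT stand for whichever copy the ID holds.

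Polyadenylated RNA was sequenced from 3 liver samples of adult fish with the lf:Yap transgene and from 3 liver samples of adult wild-type (WT) fish. Yap is the transcriptional coactivator that the Hippo kinases restrain, and the study is about its role in liver metabolism and growth. The labels give neither the promoter and form of Yap in the transgene nor the sex of the fish, an age beyond the adult stage, or whether a library is 1 fish. All p-values therefore measure the spread between these samples, which could in part be technical. YAP1 (ENSDARG00000068401) stood at 443, 386 and 291 CPM (counts-per-million, read counts over the scaled library size) in the lf:Yap libraries, against 22.6, 27.4 and 20.4 CPM in the WT libraries.

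The liver is the main organ that degrades amino acids taken up in excess of what protein synthesis needs. The pathways differ between amino acids, and several are opened by an aminotransferase or an oxygenase. The carbon skeletons enter the citric acid cycle, glucose synthesis or ketone bodies. The freed nitrogen becomes urea in mammals, whereas zebrafish, like most bony fish, excrete it mainly as ammonia. CPM are not corrected for gene length, so levels are compared between libraries and not between genes. Ratios and sums of related genes are likewise compared only between libraries.

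Total gene counts ranged from 76038709 to 85208212 in lf:Yap and from 71581315 to 87543545 in WT. The 14 hepatocyte marker IDs found, all read in every library, summed to 141169 to 157363 CPM in lf:Yap and 109675 to 124442 CPM in WT, without overlap. Without tfa, the transferrin gene and the marker with the highest average CPM, the sums overlapped. The other 13 summed to 100676, 111298 and 115934 CPM in lf:Yap and to 100813, 101912 and 85457 CPM in WT. Besides tfa, the markers fabp10a, apoa2 and HNF4A were also higher in every lf:Yap library, and FGB was lower in every lf:Yap library. Of the 14 IDs 10 had a log2 fold change above 0 and 4 below 0 (median 0.10). The libraries differed in markers of exocrine pancreas, an organ that lies against the fish liver. These 10 IDs, found for 13 names, summed to 9047, 46.0 and 13292 CPM in lf:Yap replicates 1, 2 and 3, against 11879, 479 and 1084 CPM in WT replicates 1, 2 and 3. Summed endothelial markers ranged from 61.3 to 92.1 CPM in lf:Yap and from 48.0 to 58.5 CPM in WT, also without overlap. The part of the pancreas, endothelial and hepatocyte marker differences in the values below was not tested. For the lists of cholangiocyte, intestine, erythrocyte, macrophage, neutrophil, T and NK cell, stellate and fibroblast, ovary and yolk genes the groups overlapped. No list had a gene at 0 in all libraries or a gene that passed the test. In whole tissue fewer cells of a type and less RNA per cell cannot be told apart.

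The log2 fold change of lf:Yap over WT livers lay within 0.5 of 0 for 27 of the 38 amino acid breakdown genes tested. That is 71.1%, against 64.7% of all genes tested. At an average of 10 CPM or more the shares were 81.8% and 75.2%. HPD, BCAT1, CSAD, CPS1 and TDO2 lay farthest from 0. TDO2, which opens tryptophan breakdown, was 2.72-fold higher in lf:Yap, and CSAD, for a step towards taurine, 4.22-fold higher from few reads. BCAT1, a branched-chain aminotransferase gene, was 5.39-fold lower, and CPS1, for the entry enzyme of the urea cycle, 3.95-fold lower. HPD, for a tyrosine breakdown enzyme and read at most 144 times in a library, was 7.31-fold lower with no call by any tool. Of the 39 IDs 38 passed the filter on low counts, and none of these 38 passed edgeR's quasi-likelihood test at an adjusted p of 0.05 over all genes, where the call rate over all genes was 0.665% (0.555% higher and 0.109% lower in lf:Yap). limma-voom also called none (0.754% of all genes). DESeq2 called 4 of the 38, TDO2 and CSAD as higher and BCAT1 and CPS1 as lower (4.18% of all genes).

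By the edgeR p before adjustment, 5 were higher and 3 lower at 0.05, which is 21.1% of the 38 genes against 11.3% of all genes tested (6.12% higher, 5.2% lower). The groups did not overlap for 9 of the 38, or 23.7%, against 17.6% of all genes (8.84% higher, 8.78% lower). Among genes that averaged at least 10 CPM the shares were 12.1% of 33 and 15.02% of all genes for the unadjusted p. For groups without overlap they were 15.2% of the 33 and 20.2% of all genes. At these levels neither share lay above the background. The median log2 fold change (lf:Yap over WT) was -0.02 for the 38 genes and -0.03 for all genes. For 23 of the 38, or 60.5%, the 95% interval of the change lay within a 2-fold difference either way, against 33.2% of all genes tested. With an average of at least 10 CPM these shares were 69.7% of the 33 genes and 60.7% of all genes.

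**Figure D1:**
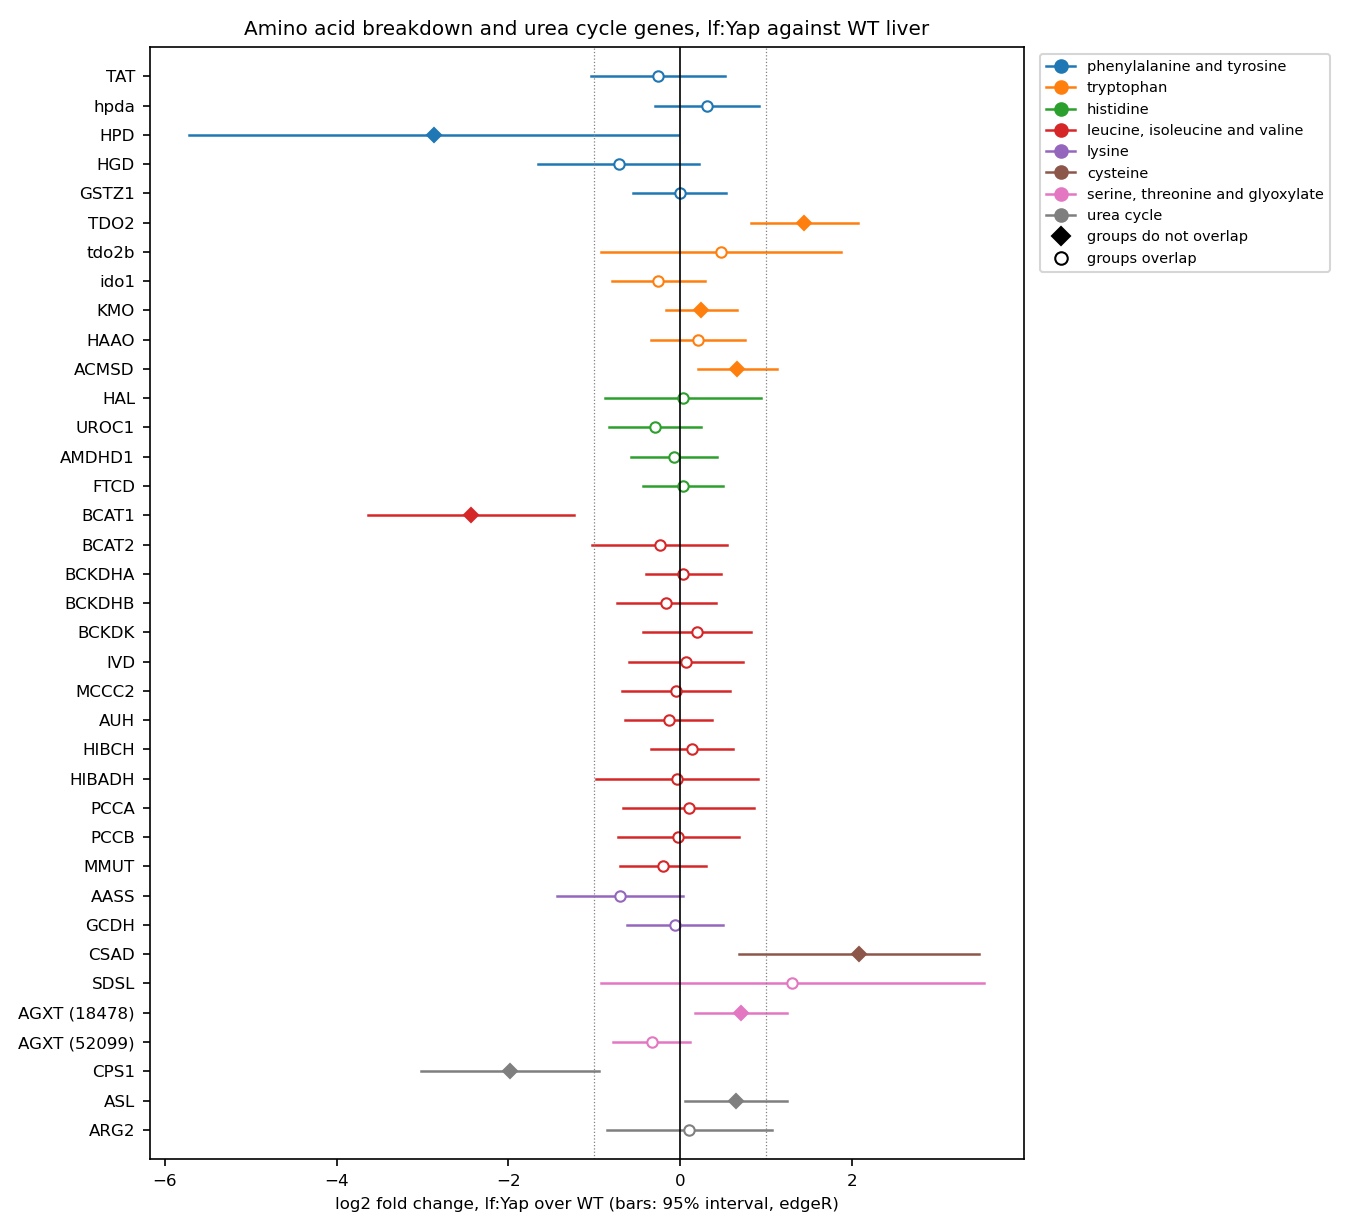
Log2 fold change of lf:Yap over WT livers for 37 of the tested genes (x axis), in pathway order from top to bottom (y axis), with bars for the 95% interval from edgeR. Filled diamonds mark the 9 genes whose groups did not overlap, and dotted lines mark a 2-fold difference. HPD, BCAT1 and CPS1 lie farthest to the left and CSAD and TDO2 farthest to the right, while 22 intervals lie between the dotted lines.

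Among the tryptophan genes TDO2, a gene for the entry to the pathway, showed the clearest difference. Tryptophan 2,3-dioxygenase opens the indole ring and is the step that commits tryptophan to the kynurenine pathway in liver, and zebrafish has the genes tdo2a and tdo2b for it. TDO2 (ENSDARG00000071429) stood at 2356, 1954 and 1474 CPM in lf:Yap and at 907, 560 and 660 CPM in WT. Every lf:Yap library lay above every WT library. The log2 fold change was 1.44 ± 0.26 (SE, 95% interval 0.83 to 2.06), with an adjusted p of 0.0814 by edgeR, 0.0692 by limma-voom and 0.000278 by DESeq2. With any 1 of the 6 libraries left out, edgeR gave a log2 fold change between 1.27 and 1.68 and an unadjusted p under 0.05. In the libraries low in pancreas markers alone, lf:Yap replicate 2 against WT replicates 2 and 3, it was 1.68. Every value given below for these libraries rests on the same 1 lf:Yap library.

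The other dioxygenase gene varied more between the lf:Yap libraries. tdo2b (ENSDARG00000023176) stood at 422, 1150 and 177 CPM in lf:Yap and at 433, 456 and 372 CPM in WT. The lf:Yap libraries lay on both sides of the WT libraries, with replicate 2 the highest of all 6 and replicate 3 the lowest. Its log2 fold change of 0.47 ± 0.59 (SE, adjusted p = 0.851, edgeR) became -0.48 without lf:Yap replicate 2. In the libraries low in pancreas markers, where that replicate stands alone for lf:Yap, it was 1.47, beside 1.68 for TDO2. The ratio of TDO2 to tdo2b counts was 5.58, 1.70 and 8.31 in lf:Yap and 2.096, 1.23 and 1.77 in WT, and these overlapped, so that a difference between the genes was not shown (exact permutation test of the log2 ratio, two-sided p = 0.3, n = 3 each). The sum of both genes was 2778, 3105 and 1652 CPM in lf:Yap, against 1340, 1016 and 1033 CPM in WT. All 3 lf:Yap sums lay above the WT sums, with the smallest p that 3 against 3 libraries allow (0.1, exact permutation test, two-sided).

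Further along the kynurenine pathway, ACMSD (ENSDARG00000062549) encodes the decarboxylase that diverts the pathway's ring-opened product away from NAD synthesis. It stood at 252, 271 and 210 CPM in lf:Yap, against 134, 176 and 154 CPM in WT. The groups did not overlap, and the log2 fold change was 0.66 ± 0.20 (SE, adjusted p = 0.257, edgeR). KMO (ENSDARG00000009160), the kynurenine hydroxylase gene, stood at 154, 150 and 126 CPM in lf:Yap and 123, 122 and 118 CPM in WT. Its groups were also apart, by a log2 fold change of only 0.24 ± 0.17 (SE). HAAO, the next oxygenase gene, averaged 188 ± 22.8 CPM in lf:Yap and 164 ± 41.7 CPM in WT (SD, n = 3 each), with overlap. ido1, for the dioxygenase used outside the liver in mammals, averaged 82.3 ± 14.9 CPM in lf:Yap and 98.4 ± 19.0 CPM in WT. Of the 6 tryptophan genes 5 lay above 0 and 1 below, with a median of 0.36. Of all genes tested 46.8% lay above 0, and 52.6% of those with an average of at least 10 CPM. Among the 5, HAAO (0.20 ± 0.23, SE) and tdo2b had log2 fold changes smaller than their SE.

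**Figure D2:**
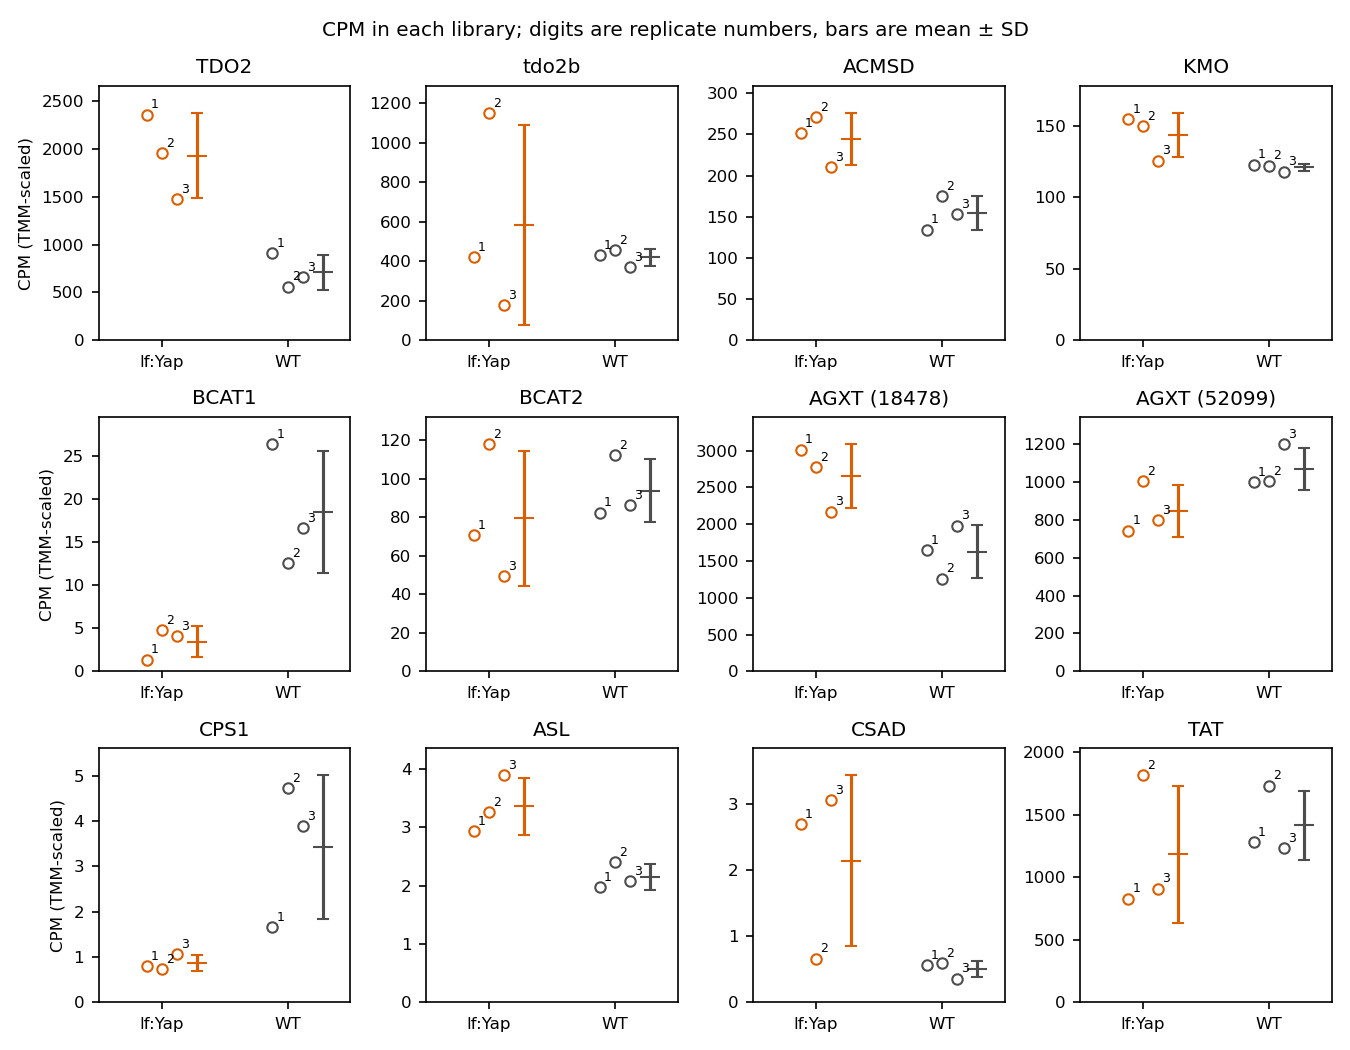
CPM (y axis, from 0) in each lf:Yap and WT library for 12 genes, with replicate numbers beside the open circles and the mean ± SD of 3 libraries beside each group. TDO2, ACMSD, KMO, AGXT (ENSDARG00000018478), ASL and CSAD are higher in every lf:Yap library, and BCAT1 and CPS1 lower, while the groups overlap for tdo2b, BCAT2, TAT and AGXT (ENSDARG00000052099).

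Tyrosine breakdown genes had no call by any of the 3 tools. Tyrosine aminotransferase opens the pathway, and 4-hydroxyphenylpyruvate dioxygenase and homogentisate dioxygenase follow. TAT (ENSDARG00000069630) stood at 829, 1816 and 909 CPM in lf:Yap, against 1282, 1734 and 1234 CPM in WT. Replicate 2 of lf:Yap was the highest of the 6 libraries and the other lf:Yap replicates the lowest. For TAT edgeR gave a log2 fold change of -0.26 ± 0.33 (SE), with a 95% interval of -1.04 to 0.52.

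HGD (ENSDARG00000058005), the homogentisate dioxygenase gene, averaged 988 ± 430 CPM in lf:Yap and 1626 ± 596 CPM in WT (SD, n = 3 each), with overlap (log2 fold change -0.72 ± 0.40, SE, adjusted p = 0.58, edgeR). hpda (ENSDARG00000018351), for the dioxygenase before it, stood at 4354, 4608 and 5175 CPM in lf:Yap and at 2460, 4207 and 4722 CPM in WT. Only WT replicate 1 lay well below the rest. A second dioxygenase ID, HPD (ENSDARG00000044935), had 0, 24 and 4 counts in lf:Yap and 144, 49 and 40 counts in WT. All lf:Yap libraries were lower (unadjusted p = 0.0483, adjusted p = 0.438, edgeR). The 0 counts of lf:Yap replicate 1 allow up to 0.0365 CPM (3 counts, counting error only), and the unadjusted p stayed under 0.05 in 1 of the 6 fits on 5 libraries. In the libraries low in pancreas markers the log2 fold change was -0.61, against -2.87 ± 1.21 (SE) over all libraries. GSTZ1, for the isomerase before the last step, averaged 114 ± 26.3 CPM in lf:Yap and 115 ± 16.0 CPM in WT.

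Histidine breakdown genes overlapped between the groups, with log2 fold changes from -0.30 to 0.03. HAL (ENSDARG00000017444), the histidase gene that opens the pathway, stood at 222, 255 and 336 CPM in lf:Yap, against 180, 436 and 183 CPM in WT. The lf:Yap values all lay inside the WT range. UROC1, AMDHD1 and FTCD, which carry the product on to glutamate and the folate pool, had log2 fold changes of -0.30 ± 0.23, -0.08 ± 0.21 and 0.03 ± 0.20 (SE). All 4 of the 95% intervals lay within a 2-fold difference, though that of HAL, -0.88 to 0.93 on the log2 scale, only just.

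Of the 13 genes for the breakdown of leucine, isoleucine and valine, BCAT1 was the 1 whose groups did not overlap. That is 7.7% of these genes, against 17.6% of all genes tested. Branched-chain aminotransferases remove the amino group, BCAT1 in the cytosol and BCAT2 in mitochondria, and in mammals hepatocytes hold little of either. BCAT1 (ENSDARG00000045568) stood at 1.37, 4.81 and 4.12 CPM in lf:Yap and at 26.3, 12.6 and 16.6 CPM in WT. In reads this was 113, 349 and 297 against 2089, 1126 and 1433, and the groups were far apart. The log2 fold change was -2.43 ± 0.51 (SE, 95% interval -3.63 to -1.23), with an adjusted p of 0.118 by edgeR, 0.096 by limma-voom and 0.000179 by DESeq2. Without 1 library it ranged from -2.75 to -2.05, each with an unadjusted p under 0.05. In the libraries low in pancreas markers it was -1.60, with lf:Yap replicate 2, the highest of its group, standing alone. BCAT2 (ENSDARG00000054849) stood at 70.7, 118 and 49.5 CPM in lf:Yap, against 82.3, 112 and 86.4 CPM in WT, with overlap. The ratio of BCAT1 to BCAT2 counts was 0.0195, 0.0408 and 0.0832 in lf:Yap and 0.320, 0.112 and 0.192 in WT. These ratios did not overlap (exact permutation test of the log2 ratio, two-sided p = 0.1, the smallest possible with n = 3 each). BCAT1 alone already parted the groups, so the ratio is not separate support for a difference.

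The branched-chain dehydrogenase complex, which commits the keto acids to oxidation, showed no such difference. BCKDHA (ENSDARG00000040555), its E1 alpha subunit gene, stood at 33.7, 36.9 and 36.8 CPM in lf:Yap and at 30.1, 36.2 and 38.6 CPM in WT. The groups overlapped within a narrow range, and the 95% interval of the log2 fold change, -0.40 to 0.47, leaves out a 2-fold difference. BCKDK (ENSDARG00000016904), the kinase that switches the complex off, stood at 39.8, 53.7 and 65.7 CPM in lf:Yap and at 40.2, 59.3 and 40.1 CPM in WT, with overlap. BCKDHB, the partner subunit, had a log2 fold change of -0.16 ± 0.25 (SE).

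The groups overlapped for the mitochondrial steps after the complex as well. These were IVD, MCCC2 and AUH on the leucine branch, HIBCH and HIBADH on the valine branch, and PCCA, PCCB and MMUT in propionate use. Over the 12 branched-chain genes other than BCAT1 the log2 fold changes ranged from -0.24 to 0.19 and the lowest adjusted p was 0.813 (edgeR). WT replicate 3 was the highest of the 6 libraries for 7 of these 12 genes. PCCA, for a subunit of propionyl-CoA carboxylase, showed this at 34.1, 43.1 and 30.5 CPM in lf:Yap and 23.0, 27.7 and 50.1 CPM in WT.

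**Figure D3:**
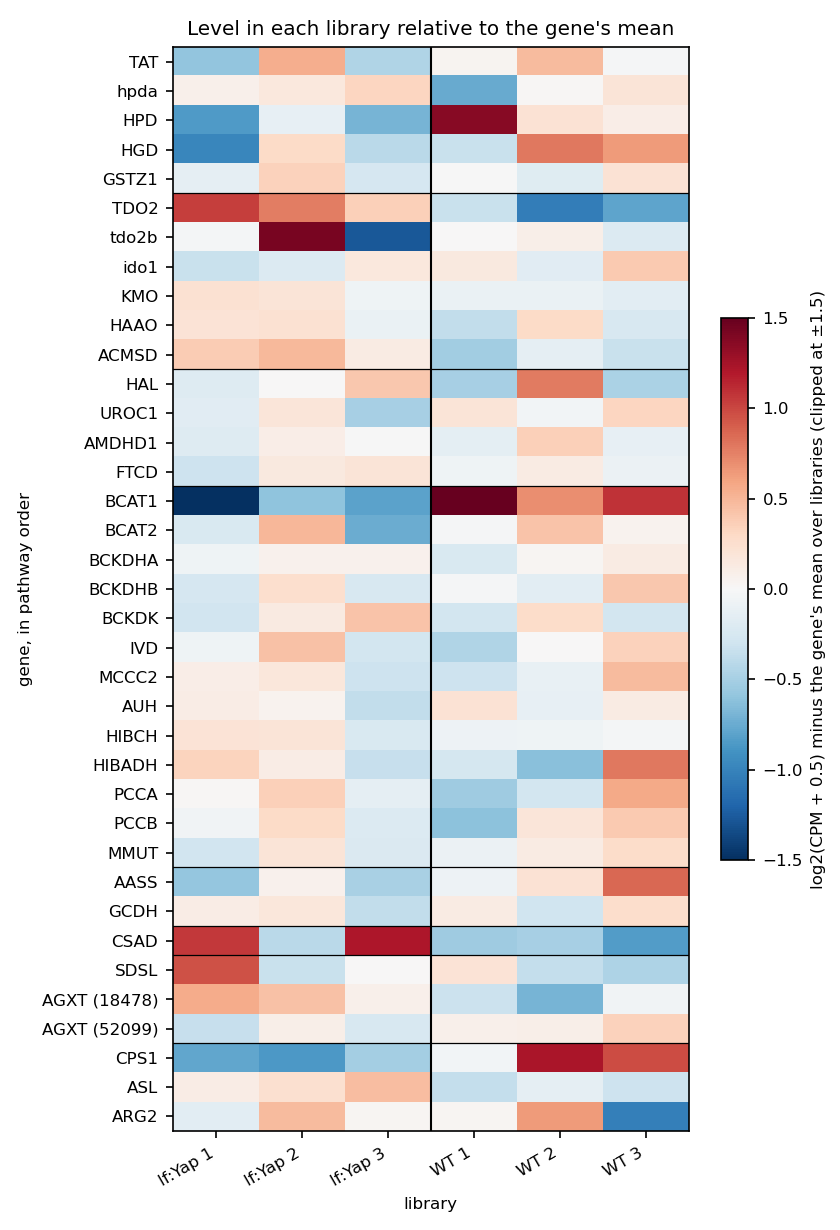
Level of 37 of the tested genes (y axis, pathway order, horizontal lines between amino acids) in each library (x axis, lf:Yap left of the vertical line, WT right), as log2(CPM + 0.5) minus the gene's mean over the 6 libraries. TDO2 and BCAT1 change colour at the vertical line, as do ACMSD, ASL, HPD and AGXT (ENSDARG00000018478), in some libraries only faintly. CPS1 does so except in WT replicate 1, which is near its mean. Most other genes vary by library, as in the column of WT replicate 3 for the branched-chain genes.

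Lysine breakdown starts with the bifunctional enzyme encoded by AASS. AASS (ENSDARG00000051816) stood at 22.4, 35.4 and 23.9 CPM in lf:Yap, against 32.2, 39.2 and 61.9 CPM in WT. Only lf:Yap replicate 2 reached into the WT range. Its log2 fold change was -0.70 ± 0.31 (SE, unadjusted p = 0.0571, adjusted p = 0.464, edgeR). GCDH (ENSDARG00000037057), for the dehydrogenase near the end of the pathway, averaged 128 ± 24.6 CPM in lf:Yap and 134 ± 25.6 CPM in WT (SD, n = 3 each).

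CSAD (ENSDARG00000026348), for the decarboxylase that turns cysteine sulfinate towards taurine, was low in every library. It stood at 2.70, 0.661 and 3.06 CPM in lf:Yap and at 0.567, 0.592 and 0.359 CPM in WT. Replicates 1 and 3 of lf:Yap were high and replicate 2 lay just above the WT libraries. The log2 fold change was 2.08 ± 0.59 (SE), with an adjusted p of 0.242 by edgeR, 0.376 by limma-voom and 0.0232 by DESeq2. The same lf:Yap replicates 1 and 3 held 9047 and 13292 CPM of pancreas markers, while WT replicate 1, with 11879 CPM of them, did not share the high CSAD level. In the libraries low in pancreas markers the log2 fold change was 0.48, and the part of pancreas RNA in the result was not tested.

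SDSL (ENSDARG00000074698), a relative of serine dehydratase, had 84, 9 and 21 counts in lf:Yap and 32, 10 and 6 counts in WT, too few and too mixed to part the groups (log2 fold change 1.30 ± 0.95, SE). Its counts were highest in lf:Yap replicates 1 and 3 and WT replicate 1, the libraries with the most pancreas marker RNA. In the libraries low in pancreas markers its log2 fold change was 0.45. The part of pancreas RNA in SDSL was not tested. Alanine-glyoxylate aminotransferase removes glyoxylate while it uses alanine or serine, and both AGXT IDs were read by many counts. The first, ENSDARG00000018478, stood at 3014, 2772 and 2170 CPM in lf:Yap and at 1644, 1260 and 1980 CPM in WT. Its groups did not overlap, though lf:Yap replicate 3 and WT replicate 3 lay close together, and the log2 fold change was 0.70 ± 0.23 (SE, adjusted p = 0.301, edgeR, and 0.15, DESeq2). The second, ENSDARG00000052099, stood at 742, 1001 and 798 CPM in lf:Yap, against 999, 1005 and 1198 CPM in WT. It lay in the other direction with slight overlap, at a log2 fold change of -0.33 ± 0.19 (SE).

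The ratios of the AGXT counts within each library did not overlap between the groups. The count of the first was 4.06, 2.77 and 2.72 times that of the second in lf:Yap and 1.64, 1.25 and 1.65 times in WT. The lowest lf:Yap ratio lay well above the highest WT ratio (exact permutation test of the log2 ratio, two-sided p = 0.1, the smallest possible with n = 3 each). Their sum was 3756, 3773 and 2968 CPM in lf:Yap and 2643, 2265 and 3177 CPM in WT, which overlapped. A ratio also does not show which gene changed, and reads shared between the copies, if any, could have been split by the counting.

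**Figure D4:**
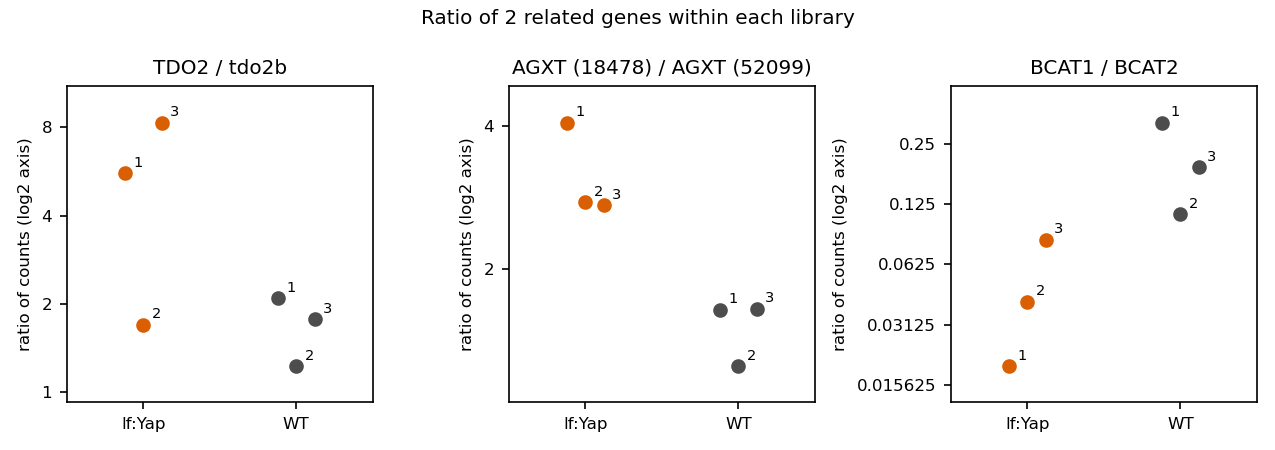
Ratio of the counts of related genes within each library (y axis, log2 scale), with lf:Yap left of WT and replicate numbers beside the points, for TDO2 over tdo2b, AGXT (ENSDARG00000018478) over AGXT (ENSDARG00000052099) and BCAT1 over BCAT2. The groups are apart for the AGXT and BCAT pairs and overlap for the dioxygenase pair, where lf:Yap replicate 2 lies at 1.70.

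Urea cycle genes other than ARG2 were read at low depth. Carbamoyl phosphate synthetase brings in the nitrogen, and the fish enzyme takes it from glutamine. CPS1 (ENSDARG00000020028) had 66, 53 and 77 counts in lf:Yap and 132, 423 and 336 counts in WT, or 0.803, 0.730 and 1.07 CPM against 1.66, 4.72 and 3.89 CPM. All lf:Yap libraries lay below all WT libraries, WT replicate 1 being the nearest. The log2 fold change was -1.98 ± 0.44 (SE, 95% interval -3.02 to -0.95), with an adjusted p of 0.139 by edgeR, 0.198 by limma-voom and 0.00174 by DESeq2. It ranged from -2.30 to -1.66 without 1 library. In the libraries low in pancreas markers it was -2.56, with lf:Yap replicate 2, the lowest of its group, standing alone.

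ASL (ENSDARG00000033361), for argininosuccinate lyase, which releases fumarate and leaves arginine, stood at 2.93, 3.26 and 3.89 CPM in lf:Yap, against 1.98, 2.40 and 2.07 CPM in WT. It was higher in every lf:Yap library, by a log2 fold change of 0.64 ± 0.25 (SE, unadjusted p = 0.0377, adjusted p = 0.401, edgeR), the opposite direction to CPS1. The unadjusted p stayed under 0.05 in 2 of the 6 fits without 1 library. ARG1 (ENSDARG00000057429), for the arginase that ends the cycle in mammalian liver, had 9, 6 and 126 counts in lf:Yap and 4, 8 and 13 counts in WT. The 126 reads came from lf:Yap replicate 3, and the gene did not pass edgeR's filter on low counts. ARG2 (ENSDARG00000039269), for the mitochondrial arginase, stood at 375, 585 and 428 CPM in lf:Yap and at 429, 655 and 206 CPM in WT. The lf:Yap values lay inside the WT range, at a log2 fold change of 0.11 ± 0.41 (SE).

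Other enzymes, cofactor genes and carriers of the same pathways gave 34 further gene IDs from 37 names, all tested. None of them passed edgeR's adjusted threshold. Before adjustment, p was under 0.05 for 2 that were higher and 3 that were lower, 14.7% in all against 11.3% of all genes tested (6.12% higher, 5.2% lower). The groups did not overlap for 2 that were higher and 5 that were lower. That is 20.6%, against 17.6% of all genes (8.84% higher, 8.78% lower). The median log2 fold change was -0.0048. limma-voom called GCH1 (0.754% of all genes called) and DESeq2 called GCH1 and GLDC (4.18%), which are named after their values were seen. GCH1 (ENSDARG00000070453), for the enzyme that sets the rate of tetrahydrobiopterin synthesis, the cofactor of the aromatic amino acid hydroxylases, stood at 718, 655 and 776 CPM in lf:Yap and at 179, 45.9 and 59.0 CPM in WT. Every lf:Yap library lay far above WT replicate 1, the highest WT library. The log2 fold change was 2.92 ± 0.53 (SE), with an adjusted p of 0.0797 by edgeR, 0.0373 by limma-voom and 1.99e-06 by DESeq2, and of 0.0113 by edgeR without WT replicate 1, against 0.166 to 0.22 without any other library. The log2 fold change was 3.64 in the libraries low in pancreas markers, with lf:Yap replicate 2 alone in its group.

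The other genes of tetrahydrobiopterin supply had no call. PTS and SPR, for the later synthesis steps, had log2 fold changes of -0.25 ± 0.31 and 0.45 ± 0.36 (SE). PCBD1, of the recycling arm, stood at 78.7, 80.1 and 73.8 CPM in lf:Yap and at 66.4, 60.6 and 65.2 CPM in WT, without overlap. QDPR, the reductase gene of that arm, had 3 IDs, of which ENSDARG00000040190 averaged 20.2 ± 9.26 CPM in lf:Yap and 42.1 ± 12.1 CPM in WT (SD, n = 3 each, adjusted p = 0.345, edgeR), with slight overlap. Its other IDs lay at 0.44 ± 0.34 (ENSDARG00000037378) and -0.08 ± 0.80 (ENSDARG00000086859) on the log2 scale (SE). GLDC (ENSDARG00000035120), for the decarboxylase of the glycine cleavage system, stood at 48.8, 81.5 and 101 CPM in lf:Yap, against 131, 211 and 161 CPM in WT. All 3 lf:Yap libraries were lower, with an adjusted p of 0.237 by edgeR and 0.0447 by DESeq2 (log2 fold change -1.12 ± 0.32, SE). Of the same system AMT lay at -0.45 ± 0.26, with overlap, and DLD, its dehydrogenase gene, at -0.00018 ± 0.25 (log2, SE). DDC, the aromatic amino acid decarboxylase gene, lay at -0.84 ± 0.32 (log2, SE), without overlap (unadjusted p = 0.0336, adjusted p = 0.387, edgeR).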

How the data were processed

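The deposited table holds raw counts of reads per Ensembl gene for 3 lf:Yap and 3 WT libraries. The submitters' processing notes name STAR 2.3.0e and HTSeq 0.6.0, with build, annotation and strandedness not given in the sources used here. Row sums start at 30 reads. A reference list gave symbols for 17999 of 25640 gene IDs. The members and lists were chosen with earlier results of these data known. Named with values were the genes that open or set the rate of a branch, those past an adjusted p of 0.05 in any tool, and those with an unadjusted p under 0.05 or groups without overlap; others were chosen after their values were seen. The values of 1 tested gene are not reported here, though it counts among the genes tested.

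Counts were tested across all genes with edgeR 4.0.16 in R 4.3.3 (filterByExpr, 24674 genes kept, TMM, robust quasi-likelihood fit, two-sided, Benjamini-Hochberg over all genes, threshold 0.05). The standard error is the log2 fold change divided by the square root of F, and 95% intervals use the fit's degrees of freedom. CPM use TMM-scaled library sizes. DESeq2 1.42.0 and limma-voom (limma 3.58.1), other scalings and filters, a replicate block and fits without 1 library were alternatives. The procedure was also run on simulated counts, drawn separately for each gene with planted changes. The outcome is not given here, and no result above rests on it. Chi-square divided by its degrees of freedom was 212 to 376 between replicates, far above sampling noise, and none was treated as a repeat.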

Additional observations from a re-analysis of the deposited data

How the results depend on the processing

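The number of changed genes over the whole table, 164 in the reported fit, was 1066 by DESeq2 and 32 to 94 without 1 library (lower without each of the 6, and 32 without WT replicate 3). Same-numbered libraries did not deviate together (correlations of 0.077, 0.031 and -0.21), and those with different numbers ranged from -0.22 to 0.20. Pairing by number was thus not seen, though so few libraries cannot exclude it. A replicate block left 17 changed genes and again none of the amino acid breakdown genes. An alternative chosen after seeing the data, the 3 libraries under 5000 CPM of pancreas markers, left 0 by edgeR (1761 at an unadjusted p under 0.05), with lf:Yap replicate 2 as the lone sample of its group, assumed to vary like the WT libraries. Amino acid breakdown genes called were 0 in every edgeR and limma-voom fit and 4 by DESeq2; at an unadjusted p under 0.05 they were 8, but 5 with at least 5 CPM in 3 libraries, where 33 of the 38 were tested, and 4 in the libraries low in pancreas markers. With library totals in place of TMM the median of all genes moved to -0.17, and the amino acid breakdown genes at an unadjusted p under 0.05 split into 4 higher and 5 lower. Other genes of the pathways at that p were 5, against 2 to 7 without 1 library (2 when lf:Yap replicate 1 was left out, and 3 when it was lf:Yap replicate 3, WT replicate 1 or WT replicate 2) and 2 in the libraries low in pancreas markers.

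Of the members named by the rule, TAT, tdo2b, HAL, BCKDHA and ARG2 turned their sign under an alternative, as did CTH (ENSDARG00000032206) of the other pathway genes (2.62 over all libraries, -1.53 in those low in pancreas markers). Without 1 library the log2 fold change spanned -0.48 to 0.91 for tdo2b, -0.19 to 0.59 for HAL, -0.045 to 0.099 for BCKDHA and -0.24 to 0.54 for ARG2. With library totals it was -0.10 for HAL, -0.10 for BCKDHA and -0.036 for ARG2, and HAL lay at -0.0050 with the 5 CPM filter. In the libraries low in pancreas markers it was 0.29 for TAT, -0.28 for HAL and -0.018 for BCKDHA. Over all libraries the log2 fold changes of TAT, tdo2b, HAL, BCKDHA and ARG2 were each smaller than their SE, so their signs were not settled. HAL lay at 0.03 ± 0.38 and BCKDHA at 0.03 ± 0.18 (SE). The cause of the sign changes was not tested. HPD, SDSL and ARG1 had libraries under 10 reads, where counting error is large.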

Other observations

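CTH (ENSDARG00000032206), 1 of 2 IDs for cystathionine gamma-lyase, the enzyme that makes cysteine from cystathionine, was read at 10.04, 0.262 and 10.9 CPM in lf:Yap and at 1.93, 0.837 and 0.683 CPM in WT (log2 fold change 2.62 ± 1.11, SE, unadjusted p = 0.0497, adjusted p = 0.441, edgeR). In the libraries low in pancreas markers the log2 fold change was -1.53. Its highest libraries, lf:Yap replicates 1 and 3 and then WT replicate 1, are the 3 with the most pancreas marker RNA. The part of pancreas RNA in these values was not tested. The other CTH ID (ENSDARG00000074301) stood at 36.2, 34.3 and 16.8 CPM in lf:Yap, against 50.2, 39.4 and 40.8 CPM in WT, without overlap (log2 fold change -0.58 ± 0.31, SE, adjusted p = 0.566, edgeR).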
